A study of Rattus norvegicus with 8 samples.

Results

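The transcripts described here are those of 6 secreted proteins of fat tissue, adiponectin (Adipoq), leptin (Lep), resistin (Retn), adipsin (Cfd), retinol binding protein 4 (Rbp4) and nicotinamide phosphoribosyltransferase (Nampt), and of the adiponectin receptors Adipor1 and Adipor2. They were taken by symbol from the deposited gene tables, and all 8 were listed once in both, among 14295 genes in the table of adipose-derived stem cells (ASC) and 18236 in the table of adipocytes (AD). The cells came from inguinal fat of wild-type Wistar rats kept for 6 months on either a control diet (C) or food high in fat and sucrose (HFS). ASC were isolated with collagenase and grown in DMEM F12 with 10.0% FBS, and they are the groups ASC_C and ASC_HFS. For AD_C and AD_HFS, confluent ASC had 3 days of induction with 10.0 µg/mL insulin, the glucocorticoid dexamethasone at 5.0 µM and the phosphodiesterase inhibitor IBMX at 0.5 mM, then 7 days with insulin at the same concentration. Each of the 4 groups had 2 RNA-seq libraries. Nothing in the labels ties the paired libraries to different rats or cultures, so each p measures a difference against the spread of these samples alone, which may be technical. The labels give neither the age nor the sex of the rats.

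Adipokines are hormones and other factors that fat cells release into the blood. Adiponectin is assembled in the endoplasmic reticulum of adipocytes into multimers and acts through AdipoR1 and AdipoR2, receptors of the progestin and adipoQ receptor family that are linked to AMPK and PPARα signalling. Leptin reports the size of the fat store to the hypothalamus, resistin is an adipocyte product in rodents, adipsin is complement factor D, RBP4 carries retinol, and NAMPT makes the NAD precursor nicotinamide mononucleotide.

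Depth differed widely between the stages. The reads recovered from the deposited values numbered 992618 to 7290961 per ASC library and 76083827 to 119555051 per AD library, with ASC_HFS replicate 2 the shallowest. There, 3 reads equalled 10.9 normalized counts. The median absolute log2 ratio between the 2 libraries of a group was 0.44 in ASC_C, 0.45 in ASC_HFS and 0.34 in AD_C, while the AD_HFS libraries lay close together at 0.08. The adipocyte markers measured in both tables, 16 of 20 listed genes and none of them among the 8 genes here, took 1.86 to 2.51% of reads in AD and 0.199 to 0.430% in ASC. Of the progenitor markers, Pdgfra ranged from 537 to 2437 normalized counts and Thy1 from 201 to 1572 in the ASC libraries, whereas Dlk1 lay between 2.78 and 7.48.

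Promoter sequence was at hand for 7 of the 8 genes in a RefSeq table of the build GRCr8, which is not the build of the counts, so these positions hold for GRCr8 alone. The 250 bases before the start of Lep and Adipoq are shown because these were the genes whose transcripts passed the diet test in ASC, and those of Rbp4 because it shares a motif with Lep. Each is written 5′ to 3′ in the direction of transcription. Capitals mark the letters TTNCGNAA, a C/EBP-type motif, and CCAAT or its reverse complement.

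Lep, chr4:58626288-58626537 (plus strand): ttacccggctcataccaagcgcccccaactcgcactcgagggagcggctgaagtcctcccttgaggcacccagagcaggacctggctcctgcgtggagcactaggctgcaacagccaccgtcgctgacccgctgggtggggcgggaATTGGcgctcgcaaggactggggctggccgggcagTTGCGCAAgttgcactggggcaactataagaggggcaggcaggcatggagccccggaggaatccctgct

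Adipoq, chr11:91240170-91240419 (minus strand): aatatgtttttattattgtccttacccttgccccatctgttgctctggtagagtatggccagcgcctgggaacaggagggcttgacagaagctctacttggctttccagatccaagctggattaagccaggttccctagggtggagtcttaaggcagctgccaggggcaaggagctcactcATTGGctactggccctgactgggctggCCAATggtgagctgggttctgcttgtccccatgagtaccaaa

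Rbp4, chr1:245313552-245313801 (minus strand): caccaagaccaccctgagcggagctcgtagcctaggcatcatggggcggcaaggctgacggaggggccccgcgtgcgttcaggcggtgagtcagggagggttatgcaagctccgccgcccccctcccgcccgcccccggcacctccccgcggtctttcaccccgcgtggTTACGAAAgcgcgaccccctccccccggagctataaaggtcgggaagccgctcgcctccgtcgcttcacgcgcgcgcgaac

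Over 300 bases, from 250 before to 50 after the start and on both strands, TTNCGNAA was found once in Lep, beginning 69 bases before the start, and once in Rbp4, 81 bases before it. It was in none of the other 5 promoters and in 2.50% of 33469 promoters of the same length. CCAAT was found in Adipoq (2 matches), Lep and Adipor2, and in 37.5% of all promoters. Of the same promoters, 14.2% held TATAAA, which among the 7 genes was only in Rbp4, and 33.1% held GGGCGG, which was in Lep, Retn, Cfd, Rbp4 and Adipor1. The marked motifs do not overlap each other in the sequences shown.

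Adipoq, Rbp4, Retn and Cfd were far more abundant in AD than in ASC, while the other members differed less and not alike in both diets. In RPM, the reads of a gene per 1000000 reads of the 14018 genes that both tables list, control AD held 30.0 times as much Adipoq as control ASC, 18.8 times as much Rbp4, 12.5 times as much Retn and 8.20 times as much Cfd. The ratio was 3.48 for Lep, 1.38 for Adipor2, 1.36 for Nampt and 1.04 for Adipor1. In HFS the ratio was 9.47 for Adipoq, 15.5 for Rbp4, 17.0 for Retn and 4.30 for Cfd. For the receptors in HFS it was 2.00 for Adipor2 (single library ratios 1.66 to 2.49) and 1.31 for Adipor1 (1.30 to 1.33). The control ratios of single libraries ran from 17.3 to 74.3 for Adipoq and from 5.74 to 71.6 for Retn, since the 2 ASC_C libraries lay far apart. Over 13964 genes the median control ratio was 0.898, and 186 genes, or 1.33%, lay above 10, against 3 of the 8 members, of which Retn was above 10 only with ASC_C replicate 1 included (6.98 without it, where Adipoq had 19.3 and Rbp4 13.0). The tables were normalized separately and differ in depth, so these stage ratios were not tested, and in bulk RNA more adipocytes and more transcript per adipocyte cannot be told apart. Adipor1, Retn and every other gene is compared here only with itself, since the tables give no gene lengths.

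**Figure D1:**
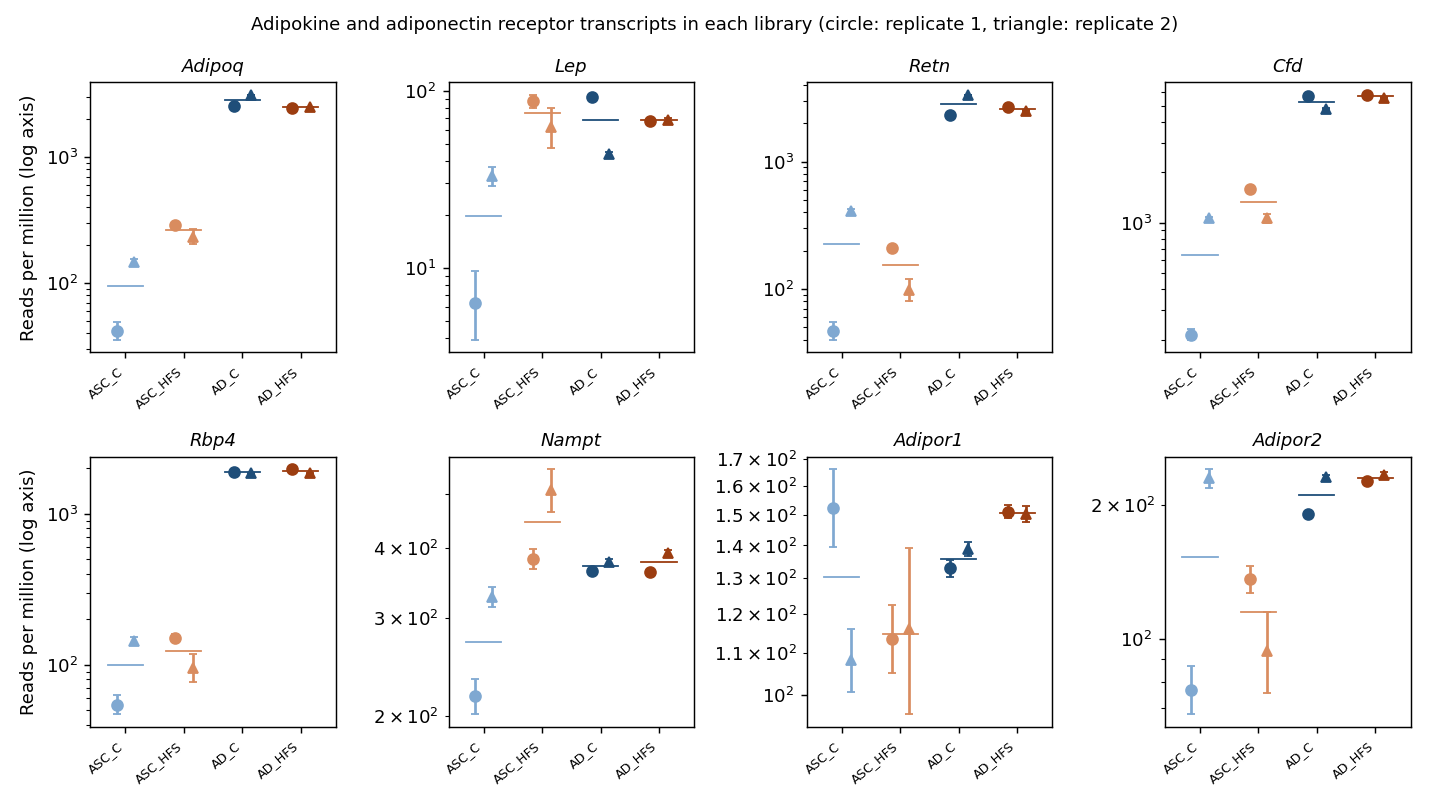
RPM over the shared genes (log axis, scaled separately in each panel) for the 8 genes in each of the 8 libraries. Circles are replicate 1, triangles replicate 2, bars exact 95% binomial intervals that cover counting error only, and horizontal lines group means. Adipoq, Retn, Cfd and Rbp4 are higher in all 4 AD libraries than in any ASC library, while the stages overlap for Lep, Nampt, Adipor1 and Adipor2.

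Adipoq, the adiponectin gene, had 41.9 and 146 RPM in ASC_C, 290 and 234 in ASC_HFS, 2534 and 3116 in AD_C, and 2458 and 2503 in AD_HFS. The order was thus ASC_C, ASC_HFS, AD_HFS and AD_C with no overlap between neighbours, although the AD groups were not told apart by the diet test given further on. Rbp4, the retinol carrier, had 54.5 and 145 in ASC_C, 151 and 95.8 in ASC_HFS, 1893 and 1859 in AD_C, and 1969 and 1849 in AD_HFS. Its diet groups overlapped at both stages, so only the stages could be ordered. Retn, the resistin gene, had 46.7 and 407 in ASC_C, 208 and 98.8 in ASC_HFS, 2338 and 3347 in AD_C, and 2703 and 2509 in AD_HFS. Cfd, the adipsin gene, had 215 and 1066 in ASC_C, 1584 and 1067 in ASC_HFS, 5700 and 4801 in AD_C, and 5810 and 5594 in AD_HFS. For Retn and Cfd too the lowest AD library lay above the highest ASC library, by at least 5.74-fold and 4.50-fold in the controls.

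Lep did not follow the stage in the same way. It had 6.29 (exact 95% binomial interval 3.89 to 9.61) and 32.9 RPM in ASC_C, 87.6 and 62.5 in ASC_HFS, 92.8 and 43.8 in AD_C, and 67.8 and 68.8 in AD_HFS. Only ASC_C stood below the others, and the AD over ASC ratio was 0.910 in HFS, with single library ratios from 0.774 to 1.10. Nampt was similar, at 217 and 327 in ASC_C, 382 and 507 in ASC_HFS, and 362 to 392 in AD. Its AD over ASC ratio was 0.848 in HFS. Adipor1 ranged from 108 to 152 over the ASC libraries and from 133 to 151 over the AD libraries, and Adipor2 from 76.7 to 229 and from 190.1 to 233. No group of either receptor gene stood apart from every other group.

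Between the 2 control ASC libraries the adipokines differed more than most genes. The ratio of the higher to the lower library, in normalized counts within the ASC table, was 9.21 for Retn, 5.53 for Lep, 5.24 for Cfd, 3.68 for Adipoq, 3.16 for Adipor2 and 2.81 for Rbp4, all with ASC_C replicate 2 higher. The median over 10518 genes with at least 50 reads in the pair was 1.31. A larger ratio than that of Retn was seen in 0.0856% of these genes, and the share was 0.323% for Lep, 0.390% for Cfd, 1.24% for Adipoq, 1.92% for Adipor2 and 2.94% for Rbp4. Nampt (1.59, replicate 2 higher) and Adipor1 (1.33, replicate 1 higher) were closer to the median gene. The summed adipocyte markers had 0.199% of reads in replicate 1 and 0.430% in replicate 2, and most of that gap was Fabp4, a lipid carrier with 30.3 and 61.3% of the marker reads. The other 15 markers had 0.139 and 0.166% of reads. The part of the markers in the spread was not tested.

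**Figure D2:**
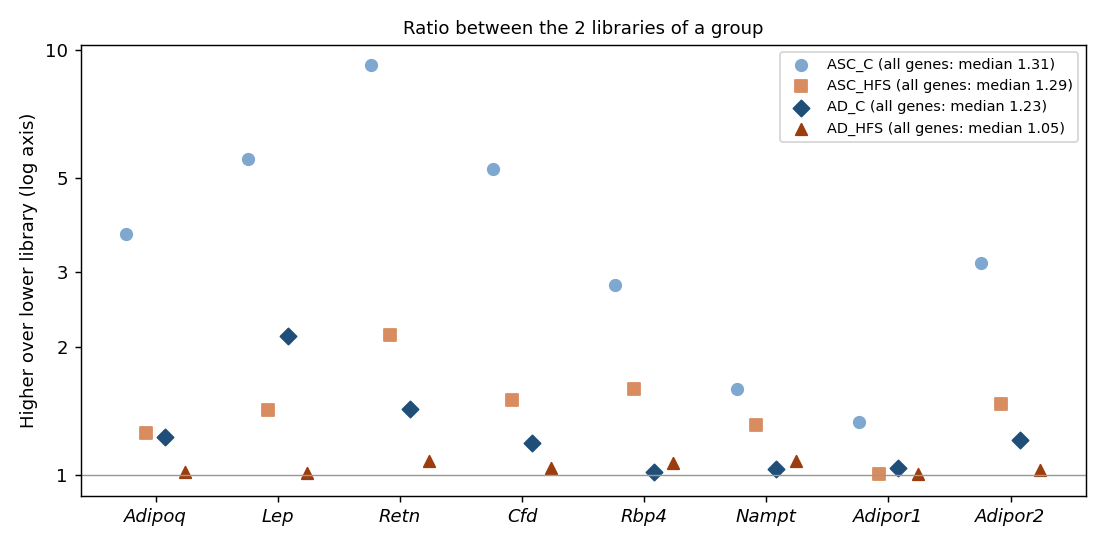
Ratio of the higher to the lower library of each group (log axis, within-table normalized counts) for the 8 genes, 1 symbol per group, with the median over all genes of the group in the legend. The ASC_C ratios of Retn, Lep, Cfd, Adipoq, Adipor2 and Rbp4 lie between 2.81 and 9.21, above every ratio of the other groups.

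Set against 1000 reads of the 16 adipocyte markers, the ASC_C ratio was 4.04 for Retn, 2.43 for Lep, 2.30 for Cfd, 1.62 for Adipoq, 1.39 for Adipor2 and 1.23 for Rbp4, while that of Adipor1 came to 3.04. Against the 15 markers without Fabp4 it was 7.27 for Retn, 4.37 for Lep, 4.13 for Cfd, 2.91 for Adipoq, 2.49 for Adipor2 and 2.22 for Rbp4, so these pairs stayed far apart on that scale. In the other groups the pairs were closer. The largest ratio of a member was 2.14 in ASC_HFS (Retn), 2.13 in AD_C (Lep) and 1.08 in AD_HFS (Retn), where the median gene had 1.29, 1.23 and 1.05. In AD_C, Retn was 1.43 times higher in replicate 2, Adipoq 1.23 times and Adipor2 1.21 times, whereas Lep and Cfd were higher in replicate 1, by 2.13 and 1.19 times.

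The first diet comparison asked whether adipokine transcripts already differed in precursors of HFS-fed rats. Leptin and adiponectin transcripts were higher in ASC_HFS. Lep had 19.5 and 107.6 normalized counts in ASC_C (21 and 240 reads) and 319 and 225 in ASC_HFS (512 and 62 reads), a ratio of means of 4.28. Both HFS libraries lay above both control libraries, the lower of them 2.09 times above the higher control. On the log2 scale of the deposited values, which compresses genes with few reads, the difference was 1.58 ± 0.33 (SE, n = 2 libraries per group, limma adjusted p = 0.00580). Adipoq had 129.7 and 477 normalized counts in ASC_C and 1058 and 841 in ASC_HFS, a ratio of 3.13, again without overlap. Its log2 difference was 1.64 ± 0.39 (limma adjusted p = 0.0107). These were 2 of the 8 members, both higher, where 19.1% of all 14295 genes passed and 9.41% passed as higher.

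The size of both differences moved with either control library. Without ASC_C replicate 1 the log2 differences by limma-trend were 0.97 for Lep and 0.89 for Adipoq, and without ASC_C replicate 2 they were 2.20 and 2.39. By limma-voom they were 1.41 and 1.00 without the former, and 3.84 and 2.87 without the latter. With limma-trend, no gene of the table passed when any 1 of the 4 ASC libraries was left out, whereas 2318 to 4538 had an unadjusted p under 0.05. By limma-voom on the recovered reads, Lep and Adipoq stayed higher in HFS with each of the 4 libraries left out in turn. Their log2 differences were at least 1.41 and 1.00. A fit without a control library leaves out the spread between the ASC_C libraries, so it cannot show that the differences exceed that spread. After thinning every library to the depth of ASC_HFS replicate 2, the limma-voom adjusted p was 0.124 for Lep and 0.0935 for Adipoq, while the log2 differences of 2.28 and 1.94 lay near the 2.37 and 1.89 of limma-voom at full depth.

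**Figure D3:**
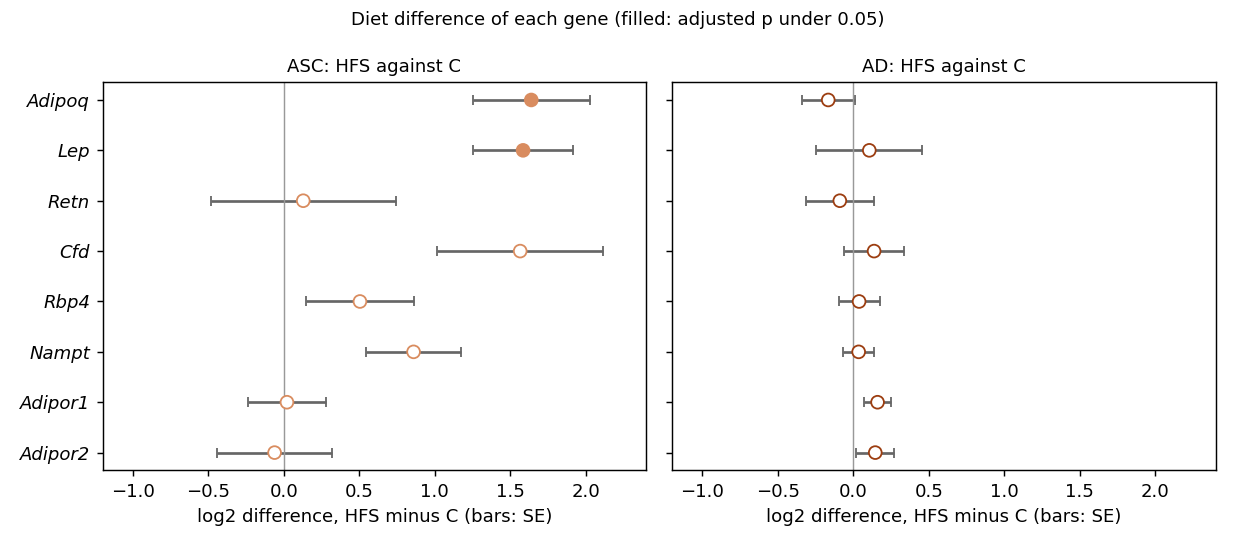
Log2 difference of HFS minus C (horizontal axis, log2 of the deposited value plus 1) for the 8 genes in ASC (left) and AD (right). Points are limma estimates, bars standard errors over 2 libraries per group, and filled points have an adjusted p under 0.05. Only Adipoq and Lep in ASC are filled, and all AD estimates lie between -0.17 and 0.16.

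Cfd and Nampt also had both HFS libraries above both controls in ASC but did not pass the main test. Cfd had 665 and 3483 normalized counts in ASC_C and 5776 and 3837 in ASC_HFS, a ratio of 2.32 and a log2 difference of 1.57 ± 0.55 (limma adjusted p = 0.0616). Nampt had 671 and 1067 in ASC_C and 1391 and 1824 in ASC_HFS, a ratio of 1.85 and a log2 difference of 0.86 ± 0.32 (limma adjusted p = 0.0725). By limma-voom, where 22.3% of all genes passed, both did so, Cfd at adjusted p = 0.00407 and Nampt at 0.0275, and without ASC_C replicate 1 neither did (0.228 and 0.135). Cfd was also lost without ASC_HFS replicate 1 (limma-voom adjusted p = 0.0845), and Nampt without ASC_HFS replicate 1 (0.173) or ASC_HFS replicate 2 (0.338). The groups failed to overlap for 4 of the 8 members, all higher in HFS, where 61.0% of all genes did not overlap and 28.5% did so with HFS higher.

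Retn, Rbp4 and the receptors overlapped between the diets in ASC. Retn had 144.5 and 1331 normalized counts in ASC_C and 759 and 355 in ASC_HFS, both inside the control range, with a log2 difference of 0.13 ± 0.61 (limma adjusted p = 0.910). Rbp4 had 169 and 473 in ASC_C and 549 and 344 in ASC_HFS, with a difference of 0.50 ± 0.36 (limma adjusted p = 0.345). Without ASC_C replicate 1 the estimate was -1.24 for Retn and -0.10 for Rbp4, and by limma-voom it was -1.24 for Retn and -0.80 for Adipor2. Without ASC_C replicate 2 the limma-voom estimate was 1.93 for Retn, 1.43 for Rbp4, 0.85 for Adipor2 and -0.18 for Adipor1. With all 4 libraries the adiponectin receptor genes gave no call in either direction. Adipor1 had 471 and 353 in ASC_C and 414 and 417 in ASC_HFS (0.02 ± 0.26, limma adjusted p = 0.968). Adipor2 had 237 and 749 in ASC_C and 495 and 337 in ASC_HFS (-0.06 ± 0.38, limma adjusted p = 0.933). The sign of Adipor1 flipped under upper quartile scaling (-0.02) and quantile normalization (-0.06), and that of Adipor2 under limma-voom (0.02), so neither has a direction.

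Other cell type markers moved with diet in ASC, where 19.1% of all genes passed and 9.41% passed as higher. Macrophage markers took 0.117 and 0.127% of reads in ASC_C and 0.339 and 0.360% in ASC_HFS, and 11 of 15 rose, among them the complement gene C1qc from 81.2 to 1294 normalized counts. Endothelial markers took 0.0278 and 0.0569% against 0.122 and 0.124%, and 8 of 9 rose. Epithelial and mammary markers took 0.0115 and 0.0158% against 0.148 and 0.165%, and 8 of 10 rose, with only Csn2 at 0 in a library. The progenitor marker list took 0.233 and 0.207% against 0.349 and 0.329%, and of its 10 measured genes 5 rose and 2 fell, with a median log2 difference of 0.60. The 2 were Pdgfra and Thy1, which fell to 0.274 and 0.205 of their control means. Red blood cell markers gave 2 higher of 3, neutrophil markers 1 higher of 2, smooth muscle markers 1 higher and 2 lower of 7, and lymphoid markers 1 lower of 4. The neutrophil and lymphoid lists are too short to be told from the share of all genes. The part of these cell types in the higher Lep and Adipoq was not tested.

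The summed adipocyte markers did not separate the diets, although the median log2 difference of the single genes was 0.62, against -0.04 for all genes. They took 0.199 and 0.430% of reads in ASC_C and 0.383 and 0.325% in ASC_HFS, so both HFS values lay inside the control range. None was at 0 in any ASC library. Of the 16 markers 6 passed, all higher (37.5%, where 19.1% of all genes passed and 9.41% passed as higher). These were Plin4 and Cidec, which coat lipid droplets, the lipase gene Lipe and the triglyceride synthase gene Dgat2. The others were the glycerol channel gene Aqp7 and Pck1 of glyceroneogenesis. Pparg and Cebpa, transcription factors of adipocyte identity, and Plin1 and Fabp4 did not pass, with ratios of 1.20, 1.35, 1.51 and 1.29. Per 1000 reads of the 16 markers, Lep had 3.15 and 7.66 in ASC_C and 22.8 and 19.2 in ASC_HFS, Adipoq had 21.0 and 34.0 against 75.7 and 72.0, and Cfd 108 and 248 against 413 and 328. The diets did not overlap for these 3 transcripts on this scale, with ratios of 3.89, 2.68 and 2.09. The share of all genes without overlap on this scale was not computed, and without it 61.0% of all genes did not overlap. Nampt, at 109 and 76.0 against 99.5 and 156, overlapped. Adipor2, at 38.4 and 53.3 against 35.4 and 28.9, was lower in both HFS libraries, with a ratio of 0.701.

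**Figure D4:**
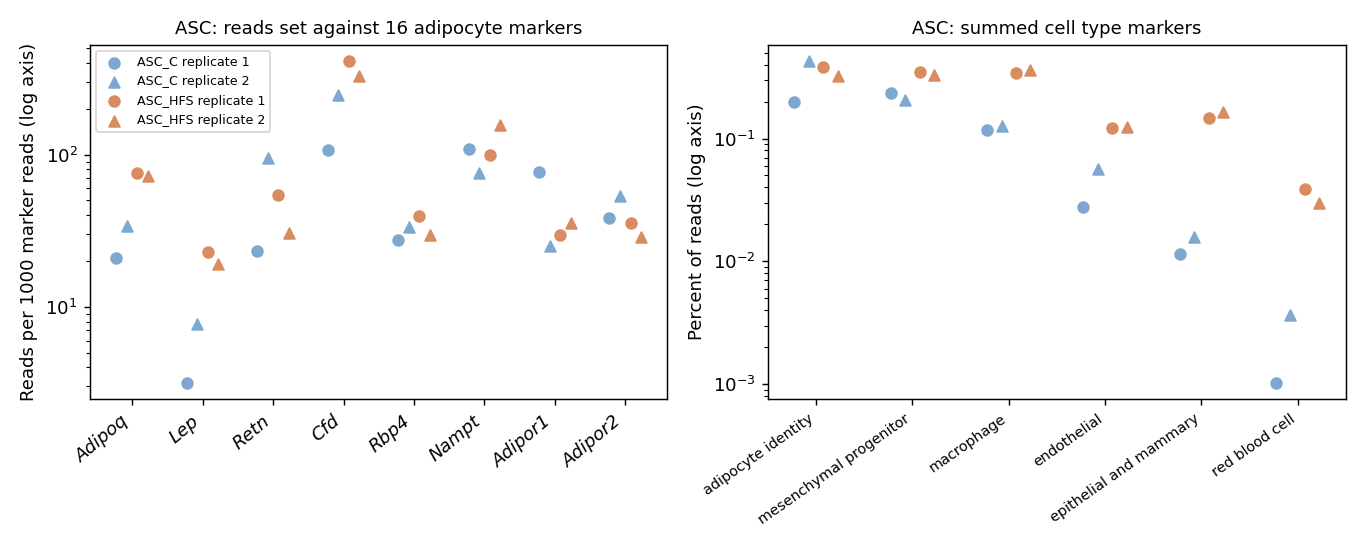
Left, reads of each of the 8 genes per 1000 reads of the 16 adipocyte markers in the 4 ASC libraries (log axis). Right, the share of reads of 6 marker lists in the same libraries (percent, log axis). Lep, Adipoq and Cfd are higher in both HFS libraries on the left. On the right the adipocyte list overlaps between the diets. The progenitor, macrophage, endothelial, epithelial and red blood cell lists do not.

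Fabp4 made up 57.3 and 46.9% of the marker reads in ASC_HFS. Without it the other 15 markers took 0.139 and 0.166% of reads in ASC_C and 0.164 and 0.172% in ASC_HFS. These sums still overlapped, but the higher HFS value lay above both controls. Against the other 15 markers, Lep had 4.53 and 19.8 per 1000 in ASC_C and 53.5 and 36.2 in ASC_HFS, and Adipoq had 30.2 and 87.7 against 177 and 136, so both kept the diets apart. Cfd, at 155 and 640 against 968 and 618, overlapped, as did Adipor2, at 55.2 and 138 against 83.0 and 54.3. Nampt, at 156 and 196 against 233 and 294, was higher in both HFS libraries in this form. Retn had 23.4 and 94.7 against 54.3 and 30.4 per 1000 reads of all 16 and overlapped in either form.

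After differentiation none of the 8 genes passed the diet test. With limma-trend 0 of 8 passed, 0 had an unadjusted p under 0.05 and 0 passed by limma-voom, where 1.34% of 18236 genes passed by limma-trend and 0.823% by limma-voom. Adipoq had 243668 and 299142 normalized counts in AD_C and 238956 and 242611 in AD_HFS, a ratio of 0.887 (log2 difference -0.17 ± 0.17, limma adjusted p = 0.730). Both HFS libraries lay below both controls. Adipor1 had 12792 and 13332 in AD_C and 14691 and 14574 in AD_HFS, a ratio of 1.12 (0.16 ± 0.09, limma adjusted p = 0.504), with both HFS libraries higher. These 2 of 8 were the members without overlap, where 47.7% of all genes had none. Per 1000 reads of the 16 adipocyte markers, 3 members were lower in both AD_HFS libraries. Adipoq had 136 and 128 in AD_C and 98.2 and 99.4 in AD_HFS, Retn 126 and 137 against 108 and 99.6, and Adipor2 10.2 and 9.47 against 9.03 and 9.27. Over the 8 members the ratio of means on this scale ran from 0.748 (Adipoq) to 0.934 (Adipor1). The share of all genes lower on it was not computed. Against the 15 markers without Fabp4, Adipoq, Retn and Adipor2 stayed lower in both HFS libraries. Rbp4 (155 and 120 against 115 and 106) and Nampt (29.7 and 24.4 against 21.0 and 22.6) were then lower too. So was Adipor1, at 10.9 and 8.97 against 8.79 and 8.66, while Lep and Cfd overlapped. The 16 markers took 1.86 and 2.43% of reads in AD_C and 2.50 and 2.51% in AD_HFS. These ratios were not tested.

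For the other members the control libraries enclosed or met the HFS values. Lep had 8930 and 4201 normalized counts in AD_C and 6589 and 6669 in AD_HFS, so both HFS libraries lay between the controls (ratio 1.01). The ratio of means was 0.926 for Retn, 1.10 for Cfd, 1.03 for Rbp4, 1.03 for Nampt and 1.10 for Adipor2, with limma adjusted p between 0.666 and 0.927. With 1 control library left out, the spread came from the AD_HFS pair alone, whose median ratio was 1.05. In that fit 5 members and 7106 genes passed by limma-trend without AD_C replicate 1, and 4 members and 9830 genes without AD_C replicate 2. Lep was then higher in HFS (0.63 without replicate 1) or lower (-0.42 without replicate 2). Macrophage markers took 0.0433 and 0.0822% of reads in AD_C and 0.386% in each AD_HFS library, and 9 of 15 rose (60%, against 1.34% of all genes). No list of another cell type gave a call in AD, and the part of macrophage transcripts in these values was not tested.

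The difference between the stages in the diet effect was tested for each gene shared by both tables. None of the 8 members passed, where 12.5% of 14018 genes did, and 3 had an unadjusted p under 0.05. The estimate, as the AD minus the ASC difference, was -1.80 ± 0.57 for Adipoq (limma adjusted p = 0.0653), -1.48 ± 0.57 for Lep (0.118) and -0.82 ± 0.34 for Nampt (0.139). For no member was the diet difference thus shown to differ between ASC and AD. With each of the 8 libraries left out in turn, the estimate ran from -2.55 to -1.06 for Adipoq. It ran from -2.09 to -0.87 for Lep and from -1.13 to -0.51 for Nampt.

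Other adipokines moved both ways in ASC. Of the 35 listed genes 27 were measured, of which 7 rose and 3 fell (37.0%, against 19.1% of all genes), with a median log2 difference of 0.43 against -0.04 for all genes. Gdf15, a stress-induced cytokine, rose from 72.6 ± 25.4 to 723 ± 111 normalized counts (SD, n = 2, limma adjusted p = 4.81e-05), the matrix protein gene Postn from 1362 ± 280 to 5988 ± 937 and the interleukin gene Il6 from 915 ± 419 to 3818 ± 56.6. Rarres2, which encodes the adipokine chemerin, fell from 6079 ± 754 to 862 ± 119 (limma adjusted p = 0.000120), and the apelin gene Apln from 123 ± 10.2 to 17.0 ± 13.8. Lcn2, the lipocalin gene, had 327 ± 76.9 in C and 178 ± 97.7 in HFS and did not pass. In this list 7 to 14 genes passed by limma-voom with 1 ASC library left out, and none by limma-trend, and 6 passed after thinning.

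Genes of the assembly and of the signalling of adiponectin were also measured in ASC, and no test compared these lists. Of 11 measured genes of folding, hydroxylation and secretion, 5 fell and none rose (45.5%, against 19.1% of all genes), with a median log2 difference of -0.66. They include Pdia4, a disulfide isomerase (1518 ± 477 to 312 ± 87.2 normalized counts), the lysyl hydroxylases Plod3 (725 ± 124 to 225 ± 10.6) and Plod1 (850 ± 179 to 329 ± 91.5), and the oxidoreductase gene Ero1a (484 ± 200 to 167 ± 41.0). Of 18 measured genes of receptor signalling, 4 rose and none fell (22.2%, near the 19.1% of all genes), with a median of 0.45. They include Insr, the insulin receptor (15.5 ± 3.51 to 69.9 ± 16.7), its substrate gene Irs2 (66.0 ± 26.5 to 170 ± 4.63) and the NAD-dependent deacetylase gene Sirt1 (107 ± 42.6 to 288 ± 44.0). Cdh13, which binds adiponectin at the cell surface, and the adaptor gene Appl1 did not pass, with ratios of 1.65 and 1.56. By limma-voom the assembly list had 3 to 7 calls with 1 ASC library left out, the fewest without ASC_HFS replicate 2, and the signalling list 1 to 6, the fewest without ASC_HFS replicate 1. After thinning 2 genes of the assembly list and 1 of the signalling list passed. In the receptor family itself 1 of 6 measured genes passed, Mmd, which fell from 278 ± 7.03 to 90.5 ± 0.168.

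The leptin receptor gene was hardly detected. Lepr had 4.63 and 0 normalized counts in ASC_C and 8.11 and 7.25 in ASC_HFS, where the 0 allows up to 1.34. The 7.25, of ASC_HFS replicate 2, lay under the 10.9 that 3 reads equal in that library. In AD it had 20.3 to 26.8, but the 2 stages were normalized separately, so these values give no stage difference. Lepr did not pass at either stage. In ASC, Cish, a feedback inhibitor of cytokine signalling, rose from 65.0 ± 17.2 to 289 ± 44.1 and Leprotl1, a regulator of receptor trafficking, fell from 236 ± 4.46 to 107 ± 2.85, the only calls among 10 measured genes (2 of 10, a share near the 19.1% of all genes), and none passed after thinning. With limma-voom and 1 ASC library left out, this list had between 1 call (without either ASC_HFS library) and 5 (without ASC_C replicate 2). For resistin, 0 of 4 measured genes of its family and receptors passed. The candidate receptor genes Cap1 and Tlr4 had ratios of 1.16 and 1.41.

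Of 14 measured genes of retinol transport and metabolism, 3 rose and 1 fell in ASC (28.6%, against 19.1% of all genes). Aldh1a3, which makes retinoic acid, rose from 46.5 ± 14.7 to 429 ± 44.3, the binding protein gene Crabp1 from 32.3 ± 3.77 to 105 ± 10.1 and the receptor gene Rara from 112 ± 8.70 to 222 ± 13.7. Of 15 measured genes of NAD synthesis and use 3 passed, a share near the 19.1% of all genes. Sirt1 rose, and Bst1 (457 ± 96.9 to 60.8 ± 3.95) and Qprt (121 ± 5.60 to 25.4 ± 5.08), of NAD breakdown and of synthesis from quinolinate, fell. Nmnat1, the next step after NAMPT, had 34.7 ± 3.38 and 20.3 ± 3.05 and did not pass, and Nmnat2 lay under the floor of 3 reads in 3 of the 4 ASC libraries. With 1 ASC library left out, limma-voom called 2 (without ASC_HFS replicate 1) to 6 retinol genes and 2 to 5 (without ASC_C replicate 2) NAD genes.

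In the alternative complement pathway, where adipsin cleaves factor B, 3 of 11 measured genes rose and 2 fell in ASC (45.5%, against 19.1% of all genes), and 1 passed after thinning. The properdin gene Cfp rose from 157 ± 97.9 to 819.9 ± 124 and the receptor gene C3ar1 from 24.5 ± 9.75 to 120.3 ± 4.29. Masp1, a protease of the lectin pathway, fell from 152 ± 93.1 to 32.9 ± 5.50, and C3 itself had a ratio of 0.831 and did not pass. By limma-voom this list had 3 to 7 calls with 1 ASC library left out, the fewest without ASC_HFS replicate 1. Cfp and C3ar1 are also expressed by macrophages, whose markers were higher in the same libraries. The part of macrophages in the higher Cfp and C3ar1 was not tested. In AD, 0 genes of these 9 lists passed. The transport partner of RBP4, Ttr, was listed in AD alone, at 8.37 to 21.9 normalized counts.

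For each member the genes with the most similar profile over all 8 libraries were looked up. The measure of likeness was the root mean square difference between centred log2 profiles of RPM over 10629 genes, given as a description, since the points share libraries and the stage. Nearest to Adipoq were Thrsp (0.25), a regulator of lipogenesis, Lipe (0.32) and Smoc1 (0.33), where the median gene lay at 2.26. Thrsp had 43.4 and 201 RPM in ASC_C, 346 and 249 in ASC_HFS, and 2230 to 2968 in AD. Rbp4 was closest to Tst (0.22), Agpat2 (0.28) and Aox4 (0.29), and Retn to Mrap (0.46), Rbp4 (0.48) and Tst (0.51). Cfd was closest to S100b (0.33), Sntb1 (0.38) and Lrrc58 (0.41). In part these profiles rest on very few reads. Mrap had 0.299 RPM in ASC_C replicate 1 and 0 in ASC_HFS replicate 2, and Sntb1 had 0 in ASC_C replicate 1.

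Lep was nearest to Mapkbp1 (0.46), Mib1 (0.49) and Cst3 (0.50), with a median gene at 1.33. Mapkbp1 had only 0 and 1.37 RPM in ASC_C. Nampt lay near Tef, Atxn1l and Pdcd6ip (all 0.12), Adipor1 near Srpra (0.09) and Aph1a (0.10), and Adipor2 near Zfp280c (0.19), Gpr146 (0.24) and Dgkq (0.26). For these 3 members the median gene lay at 0.72, 0.58 and 0.79, nearer than for any of the other 5.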

How the data were processed

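The 8 libraries, 2 per group, were read as 50 bp pairs. FastQC, STAR, featureCounts and DESeq2 are named in the submitters' processing notes, with the builds mRatBN7.2 and rn7. Versions, settings and strand handling are not given in the sources used here. Per the labels' protocols rRNA was depleted, while the molecule field says polyA RNA. The authors deposited 1 table per stage, and the deposited values are a signal, namely the base 2 antilog of variance-stabilized, size-factor normalized counts, scaled within each table. The lowest value of a table, 34.7 in ASC and 107.1 in AD, stands for no reads. Inverting the transformation gave whole reads for 100% of values (tolerance 1e-06), and from these came the normalized counts, the RPM (reads per 1000000 reads of the shared genes) and exact 95% binomial intervals, which cover counting error only.

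Diet was tested in R 4.3.3 by limma-trend (limma 3.58.1) after log2(value + 1), fitted on all genes of a table, HFS against C, two-sided, Benjamini-Hochberg adjusted p under 0.05, with a mean value of at least 10, which removed no gene. The stage by diet interaction was 1 fit of 8 libraries with 4 group means. The limma-trend fit of each table was tried on simulated counts with the same dispersion for all genes. The interaction and limma-voom fits were not simulated. Named genes are the 8 members, the called genes of each related list (at most the 4 largest per table), a fixed set of partners, and the 3 nearest profiles per member among genes with at least 5 RPM. A few genes that this rule names are not reported here. The members and lists were chosen with earlier results of these data known. Replicate numbers are not linked by the labels and pair nothing in the main fits. Alternatives were other pseudocounts, filters, scalings, moderation, a replicate block, the log2 of the recovered counts, limma-voom on these reads, thinning, and each library left out. The crossed block and limma-voom with a library left out were added after seeing the data. Python 3.11.15 and matplotlib 3.10.9 drew the figures.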

Additional observations from a re-analysis of the deposited data

How the results depend on the processing

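Against the main counts of 2731 genes in ASC, 244 in AD and 1747 for the interaction, other settings moved some totals. In ASC, 1407 genes also had an absolute log2 difference of at least 1, and 494 passed after thinning. Of the 8 members, 2 in the main fit, 4 passed by limma-voom, 4 with a crossed replicate block and 0 after thinning. In AD, 95 genes passed with upper quartile scaling, 423 with all 8 libraries in 1 fit, 112 on the log2 of recovered counts, 150 by limma-voom and 108 after thinning, with no member called in any of these. The replicate block gave 661 genes and 0 members in AD, 2976 and 3 in ASC, and 1422 and 0 for the interaction. Deviations of same-numbered libraries correlated at -0.12 in ASC and 0.0015 in AD. With 2 libraries per group, and AD_HFS libraries that hardly differed (median absolute log2 ratio 0.08), this cannot decide whether the numbers pair the samples.

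Leaving out 1 library at a time gave 0 ASC genes and 0 members with limma-trend, and 1086 to 3643 genes and 2 to 7 members with limma-voom. In AD it gave 0 to 9830 genes and 0 to 5 members with limma-trend, and 0 to 9225 and 0 to 5 with limma-voom. For the interaction it gave 425 to 2382 genes and 0 to 4 members. Each of these leaves a group with 1 library, which is assumed to vary like the others. The cause of these shifts was not tested, beyond the fewer samples.

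The sign changed under other settings for Adipor1 in ASC (-0.019 with upper quartile scaling, -0.058 with quantile normalization), Adipor2 in ASC (0.016 by limma-voom) and Rbp4 in AD (-0.012 with quantile normalization). With a library left out, signs changed within these ranges: in ASC, Retn -1.24 to 1.50 (limma-voom -1.24 to 1.93), Rbp4 -0.10 to 1.11 (-0.032 to 1.43), Adipor1 -0.16 to 0.20 (-0.18 to 0.23) and Adipor2 -0.78 to 0.65 (-0.80 to 0.85). In AD they were Lep -0.42 to 0.63 (-0.43 to 0.66), Retn -0.35 to 0.17 (the same by limma-voom), Rbp4 -0.0085 to 0.087 (-0.0089 to 0.087) and Nampt -0.019 to 0.092 (-0.018 to 0.093). For the interaction they were Retn -1.59 to 1.15, Rbp4 -1.07 to 0.14, Adipor1 -0.039 to 0.32 and Adipor2 -0.51 to 0.92. Lep and Adipoq in ASC were higher in HFS under every setting and left-out library tried, at 0.97 to 3.84 and 0.89 to 2.87. Depth limits ASC_HFS replicate 2 most, where Lep rested on 62 reads.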
